A study of Mus musculus with 6 samples.

Results

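Pou5f1, Sox2 and Nanog encode the core transcription factors of pluripotency, and they were followed here as DNA targets of Oct4, of Spt16 and of Jmjd1c. Every region whose row in the authors' neighboring-gene tables names one of the 3 genes was taken. This gave 6 of the 1542 regions in the 3 lists, of which 3 named Pou5f1, 1 named Sox2 and 2 named Nanog. The chromatin came from mouse C57BL/6 embryonic stem cells (ESCs) carrying a tet-ON Oct4 gene, which doxycycline switches on. The cells had been differentiated with retinoic acid and, for the 4 libraries used, held 10 h after doxycycline: Oct4 ChIP, Spt16 ChIP, Jmjd1c ChIP and input chromatin. The protocol gave other cells PBS in place of doxycycline. The whole series holds 6 libraries, 1 for each group, and the 0 h Oct4 and 0 h input libraries were not analysed here. Chromatin immunoprecipitation followed by sequencing (ChIP-seq) counts DNA fragments bound by the antibody's target, and input is the sheared chromatin before that selection. The sources used here do not say whether the tet-ON gene carries any DNA from upstream of Pou5f1, or whether the line is a single clone. With 1 library per group, no condition could be tested, and every interval below covers counting error only.

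Oct4, the product of Pou5f1, is a POU-domain protein that reads an octamer-type element, and in ESCs it often binds next to Sox2, an HMG-box protein, on a joint Sox-Oct element. Nanog is a homeodomain protein that shares many targets with both, and the 3 factors are known to act on each other's genes and on their own. In ESCs, Pou5f1 has enhancers upstream of its promoter, Sox2 has enhancers on either side of its short transcribed unit, and the Nanog promoter carries a Sox-Oct element close to the start. Retinoic acid silences this program as cells differentiate. Spt16 is a subunit of FACT, a chaperone that loosens and rebuilds nucleosomes, and Jmjd1c belongs to the Jumonji family of histone H3 lysine 9 demethylases.

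The Nanog sequence is shown because Nanog alone had regions beside its start. It runs from 250 bases before to 50 bases from the annotated start (RefSeq, GRCm38.p6, chr6:122707239-122707538, + strand, 5′ to 3′). Capitals mark the letters that match a joint Sox-Oct element, read on the opposite strand as the Sox-type letters CATTGT, any 1 base, and the octamer-type letters ATGCAAA.
Nanog: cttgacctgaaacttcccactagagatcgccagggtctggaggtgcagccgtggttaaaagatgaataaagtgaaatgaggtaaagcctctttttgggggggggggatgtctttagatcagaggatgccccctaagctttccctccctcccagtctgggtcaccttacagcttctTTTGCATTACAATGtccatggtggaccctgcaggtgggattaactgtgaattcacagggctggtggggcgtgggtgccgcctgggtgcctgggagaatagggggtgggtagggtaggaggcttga
The element spans bases -75 to -62 relative to that RefSeq start. The deposited Oct4 region spans -176 to -15 and the deposited Spt16 region -192 to 129 relative to the gene start in the authors' table (mm9). The builds differ and the mm9 sequence was not read. The gene is 7145 bp long in both annotations. The element, CATTGTNATGCAAA on either strand, was found in 2 of 32851 RefSeq promoter windows of 300 bases (0.00609%), and both were overlapping windows of Nanog. With CTTTGT as the Sox-type part it was found in 1 window, at Astn1. These letters were chosen with the Nanog sequence in view, so their rarity is a description only. Alone, ATGCAAA on either strand lay in 4.63% of the windows, CATTGT in 12.6% and CTTTGT in 18.7%, and the full octamer ATGCAAAT, which contains ATGCAAA, in 1.74%. The Sox2 window held ATGCAAA once, at bases -99 to -93, and CTTTGT once, without the joint element. The window at the first Pou5f1 start held none of these letters, and the window at a second, internal Pou5f1 start held CATTGT once. No Pou5f1 or Sox2 region of the lists lay within such a window.

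Which of the 3 genes was marked by which protein? Pou5f1 was named in all 3 lists, Nanog in the Oct4 and Spt16 lists, and Sox2 in the Spt16 list. The Oct4 list thus named 2 of the 3 genes, where it named 1.97% of 21896 protein-coding genes. The Spt16 list named 3 of 3, where it named 9.35% of all genes. The Jmjd1c list named 1 of 3, where it named 0.183%. The 3 genes were chosen with earlier results of these data known, so these counts are a description only. Each gene was named by a single region per list.

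The regions lay at 3 different places relative to the gene. At Pou5f1 (ENSMUSG00000024406, chromosome 17, start 35642981, mm9) all 3 regions lay upstream and outside the gene. Their middles were 1986 bp from the start for Oct4, 2009 bp for Spt16 and 2004 bp for Jmjd1c. At Nanog (ENSMUSG00000012396, chromosome 6, start 122657506) the middles lay 96 bp upstream for Oct4 and 32 bp upstream for Spt16. The Oct4 region ended 15 bp before the start, whereas the Spt16 region crossed it by 129 bp. At Sox2 (ENSMUSG00000074637, chromosome 3, start 34548926) the Spt16 region lay downstream, its middle 4050 bp from the start and 1594 bp past the annotated gene end. That position is also inside the long noncoding gene Sox2ot, whose start the table gives as 549617 bp away. No file used here places the known enhancers on mm9, so whether these regions coincide with them was not tested.

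**Figure D1:**
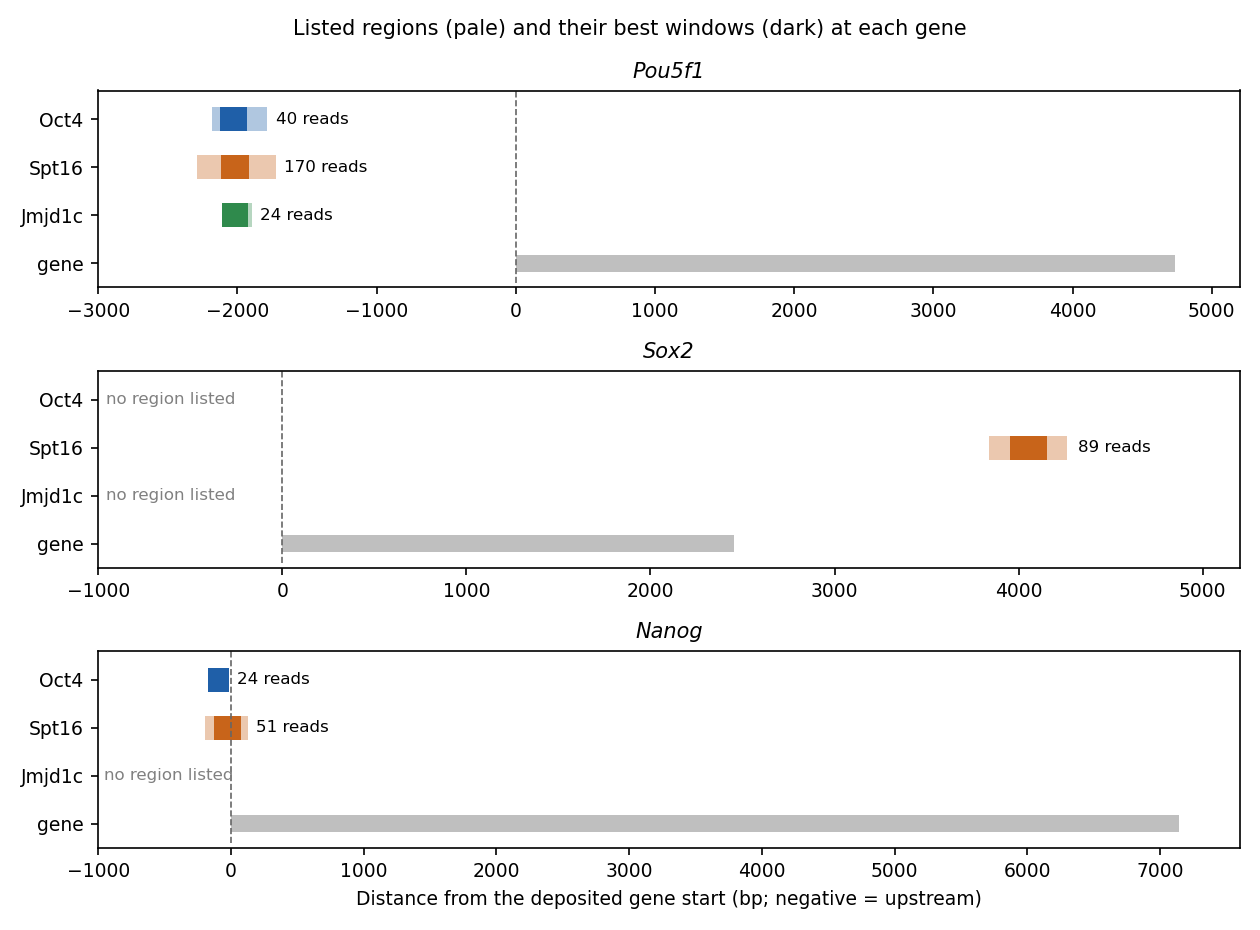
Regions listed for each antibody at Pou5f1, Sox2 and Nanog, plotted as distance in bp from the deposited gene start, with the region pale, its best window dark and the gene body grey. The Pou5f1 regions stack about a point 1986 to 2009 bp upstream, the Sox2 region lies past the gene end, and the Nanog regions lie at the start.

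Values are read counts in the best window, the stretch of about 200 bp with the strongest signal in a region, and RPM, those counts scaled to the library total in units of 1000000 reads. The Spt16 library was the deepest with 36669596 reads, followed by Jmjd1c (26736842), Oct4 (15543450) and input (14592994). Where the window held no input read, the ChIP level was set against a floor of 3 input reads (0.206 RPM), the one-sided 95% limit that a count of 0 allows. All 6 regions had been listed by the authors for exceeding this same input, so an excess over input was fixed by the listing and its size is a description only.

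Pou5f1 carried the most Spt16 reads of the 3 genes. Its upstream DNA held 40 Oct4 reads, or 2.57 RPM (95% exact Poisson interval 1.84 to 3.50), against 0 reads in the input. The Spt16 library had 170 reads there, or 4.64 RPM (3.97 to 5.39), against 0 in the input. The Jmjd1c library had 24 reads, or 0.898 RPM (0.575 to 1.34), against 0 in the input. At the counted ChIP reads, the level was at least 12.5-fold over that floor for Oct4, 22.6-fold for Spt16 and 4.37-fold for Jmjd1c. The lower ends of the ChIP counting intervals take these values down to 8.94, 19.3 and 2.80.

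At Nanog the Oct4 and Spt16 levels were close to each other. The Oct4 window held 24 reads, or 1.54 RPM (0.989 to 2.30), against 2 input reads (0.137 RPM, 0.0166 to 0.495). The Spt16 window held 51 reads, or 1.39 RPM (1.04 to 1.83), also against 2 input reads. The excess over input was 11.3-fold for Oct4 (95% exact binomial interval 2.80 to 98.4) and 10.1-fold for Spt16 (2.67 to 86.1), both with wide intervals because they rest on 2 input reads. At Sox2 the Spt16 window held 89 reads, or 2.43 RPM (1.95 to 2.99), against 2 input reads, a 17.7-fold excess (4.76 to 148).

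**Figure D2:**
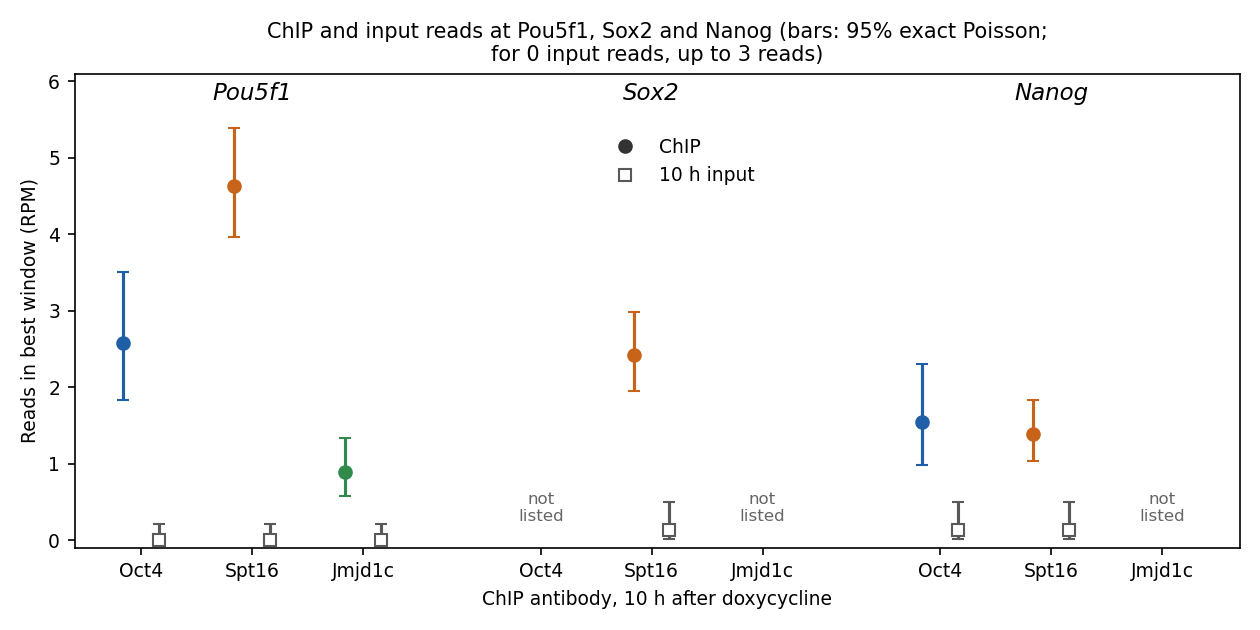
RPM in the best window for ChIP (filled circles) and for the 10 h input (open squares) at each gene and antibody, with 95% exact Poisson intervals, or for 0 input reads a bar up to the floor of 3 reads. Pou5f1 reaches 4.64 RPM for Spt16 and 2.57 RPM for Oct4, and every input value is 0 or 0.137 RPM.

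Within a library the order of the genes could be set against counting error. For Spt16 the order was Pou5f1, Sox2, Nanog, and each step exceeded counting error. Pou5f1 had 1.91 times the reads of Sox2 (1.47 to 2.50), Sox2 had 1.75 times those of Nanog (1.22 to 2.51), and Pou5f1 had 3.33 times those of Nanog (2.42 to 4.65). For Oct4, Pou5f1 had 1.67 times the reads of Nanog, but the interval (0.980 to 2.89) included 1, so the order of these genes is not set at this depth. The Nanog Oct4 window was narrower, at 161 bp against 195 bp for Pou5f1. Per kb of window the Oct4 ratio was 1.38.

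Between libraries, Pou5f1 held more Spt16 than Oct4 RPM and less Jmjd1c than either. Spt16 RPM was 1.80 times Oct4 RPM at Pou5f1 (1.27 to 2.61), where the median over all 168 regions shared by these lists was 1.14. Of the 168 ratios, 158 were lower. At Nanog the ratio was 0.901 (0.544 to 1.53), not different from 1 beyond counting error, and 43 of the shared regions had a lower one. The Nanog best window was 161 bp for Oct4 and 200 bp for Spt16. Per kb of best window the ratio was 0.725 at Nanog and 1.75 at Pou5f1. Jmjd1c RPM was 0.349 times Oct4 RPM at Pou5f1 (0.201 to 0.593). Of the 13 regions shared by those lists, whose median was 0.698, 1 was lower. Spt16 RPM was 5.16 times Jmjd1c RPM at Pou5f1 (3.36 to 8.28), the highest of the 14 regions shared by those lists, whose median was 2.51. A shared region had to be listed for both proteins, which bounds these ratios. The lowest listed RPM was 0.965 for Oct4, 0.709 for Spt16 and 0.860 for Jmjd1c, the last close to the 0.898 at Pou5f1. Antibodies differ in how well they recover their targets, so these ratios order loci within a pair of libraries and are not amounts of protein.

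**Figure D3:**
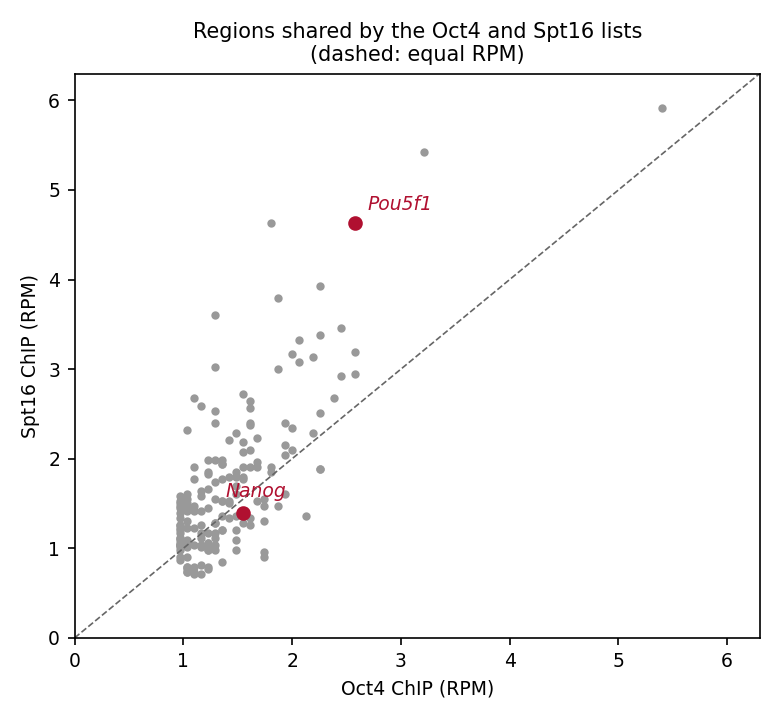
Spt16 RPM against Oct4 RPM at the 168 regions in both lists (grey), with Pou5f1 and Nanog in red and equal RPM dashed. Pou5f1 lies above the line at a ratio of 1.80 and Nanog just under it at 0.901.

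The signals of the different proteins sat on the same DNA. The 400 bp Oct4 region upstream of Pou5f1 lay wholly inside the 569 bp Spt16 region, and the 218 bp Jmjd1c region lay wholly inside both. The middles of the best windows were 9 bp apart for Spt16 and Oct4, 6 bp for Jmjd1c and Oct4, and 3 bp for Spt16 and Jmjd1c. The median such gap over all shared regions was 25 bp, 19 bp and 22 bp for these pairs. At Nanog the 161 bp Oct4 region lay inside the 321 bp Spt16 region, but the best windows were 70.5 bp apart, with the Spt16 window nearer the gene. The sheared fragments were longer than these gaps, per the labels' protocols, so the gaps do not resolve separate contacts. Of the 168 regions shared by the Oct4 and Spt16 lists, 129 were nested in this way. So were 7 of the 13 shared by the Jmjd1c and Oct4 lists and all 14 shared by the Spt16 and Jmjd1c lists. Sharing itself was common, at 168 of the 265 Oct4 regions. Of the 24 Jmjd1c regions, 13 overlapped an Oct4 region and 14 a Spt16 region. Reads came from both strands at each of the 6 regions, with a forward share of 45.8% to 52.5%, and each 95% exact binomial interval included 50%.

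Pou5f1 stood near the top of the Oct4 and Spt16 lists, and in the Jmjd1c list its place moved with the ranking measure. By the authors' binomial score, larger where the ChIP excess is less likely under equal sampling, it ranked 2 of 265 in the Oct4 list, tied with the region near Slain2, and 3 of 1253 in the Spt16 list, tied with the Rif1 region. By ChIP RPM it ranked 3 in both lists, again with ties. Its Oct4 RPM was 2.22 times the list median and its Spt16 RPM 4.59 times. In the Jmjd1c list it was 17th of 24 by score, 11th by log2 ratio and 20th by RPM, at 0.738 times the median. It held 24 Jmjd1c reads where the lowest listed region without input reads held 23, and its Q score was 15.2 against a minimum of 13 for listing. The Jmjd1c entry was therefore near the edge of that list.

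The places of Sox2 and Nanog moved with the ranking measure, and by log2 ratio Nanog was near the bottom of both its lists. Sox2 was 51st of 1253 in the Spt16 list by score, 34th by RPM and 727th by the authors' log2 ratio. Nanog was 453rd by score, 245th by RPM and 1104th by log2 ratio in the Spt16 list. In the Oct4 list it was 109th of 265 by score, 54th by RPM and 244th by log2 ratio. The log2 ratio adds 1 read to ChIP and input, and 68.0% of Spt16 regions and 72.1% of Oct4 regions had no input read, whereas Sox2 and Nanog had 2. The Nanog Oct4 region was made of 1 window, as were 97 of the 265, and 258 were wider than its 161 bp. The Pou5f1 Oct4 region was made of 9 windows, and 4 of 265 were wider.

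**Figure D4:**
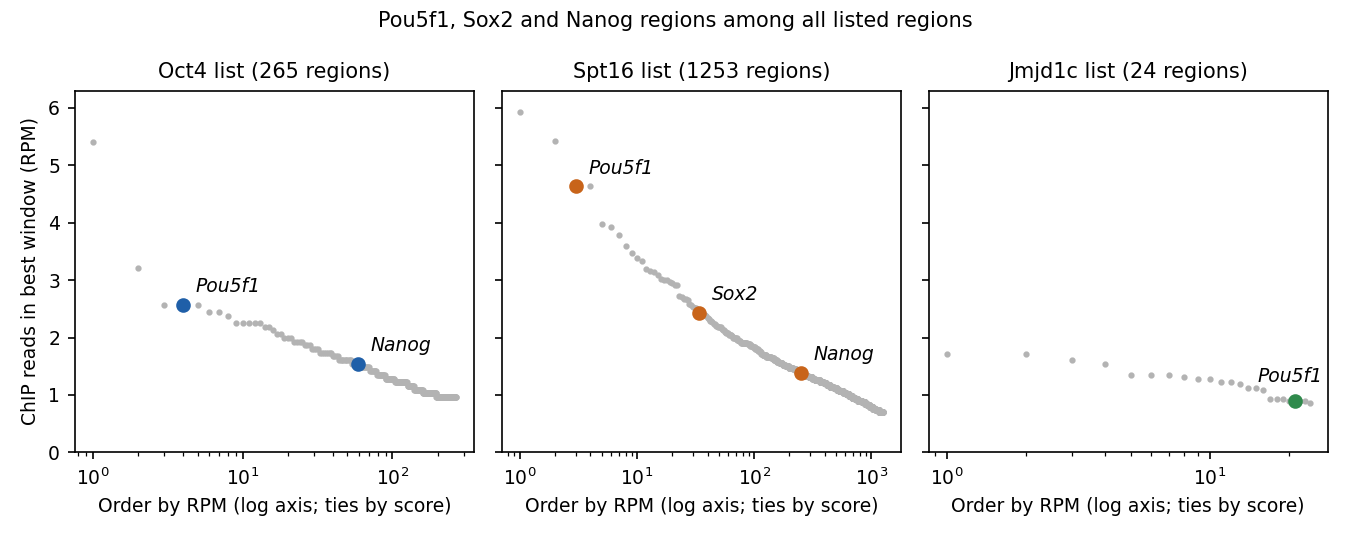
RPM of every region in each list in descending order (log axis), with the regions at Pou5f1, Sox2 and Nanog in color. Pou5f1 sits near the top for Oct4 and Spt16 and near the bottom of the 24 Jmjd1c regions.

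Sox2 was absent from the Oct4 list, and both Sox2 and Nanog from the Jmjd1c list. The files give no reads for unlisted DNA, so absence from a list is not a measured 0. Among Oct4 regions with 2 input reads, as in the Spt16 windows at Sox2 and Nanog, the lowest listed one held 22 reads (1.42 RPM). The Nanog Oct4 region, with 24, was just inside that limit. Among Jmjd1c regions with 2 input reads the lowest held 33 reads (1.23 RPM). The authors removed 10 regions found in uninduced cells from the Oct4 list, per the file headers, and the sources used here do not say which. The authors' region numbers ran to 286 for Oct4, 1302 for Spt16 and 52 for Jmjd1c. Of these numbers, 21, 49 and 28 were absent from the respective lists. What the absent numbers stood for was not examined, so no list can be taken as every region called. The nearest Oct4 region to Sox2 lay 1.89 Mb upstream and the nearest Jmjd1c region 9.13 Mb upstream. No Jmjd1c region lay on chromosome 6, which carries Nanog.

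Other genes were named beside the same regions. The Pou5f1 rows each named 7 more genes, the nearest being Tcf19 and Cchcr1, at 12773 bp and 13049 bp from the Oct4 region. The Nanog rows each named 3 more, Gm10224, Gm10420 and Slc2a3, a glucose transporter gene 94247 bp from the Oct4 region. The Sox2 row named the microRNA gene Mir1897, 15591 bp away, and Sox2ot. Pou5f1, Sox2 and Nanog were the nearest gene in each of their rows.

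How did the 3 genes compare with the wider pluripotency network? Of 42 further network genes, 10 were named in the Oct4 list, 26 in the Spt16 list and 1 in the Jmjd1c list, and 16 were in none. That is 23.8%, 61.9% and 2.38%, beside the 1.97%, 9.35% and 0.183% of all genes given above. The network list was chosen with earlier results of these data known, so its shares are a description only. All 10 genes of the Oct4 list were also in the Spt16 list, and at 9 of them the Oct4 region with the highest score overlapped a Spt16 region. The exception was Phc1, a Polycomb gene, whose Oct4 region lay 39573 bp from the start. Over the whole Oct4 list, 168 of 265 regions overlapped a Spt16 region, so overlap was the usual case. The Oct4 list named 431 protein-coding genes. The Spt16 list named 2047, of which 1735 were not in the Oct4 list.

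Pou5f1 had the highest Oct4 count beside these 10 genes, but its lead was within counting error. Their Oct4 RPM ran from 0.965 to 2.19 with a median of 1.83, against 2.57 at Pou5f1, and 6 of the 10 exceeded the 1.54 at Nanog. Counts and medians are per gene, so a region that names several genes enters for each of them. The secreted Nodal antagonist Lefty1 and its neighbor Lefty2 were named by the same highest-scoring region, with 34 Oct4 reads against 1 input read. Pou5f1 had 1.18 times the Oct4 reads of that region (0.726 to 1.92), an interval that includes 1. The germline gene Dppa3 and the growth factor gene Gdf3 also shared a region, with 29 against 2. The Polycomb partner Jarid2 had 31 Oct4 reads against 3 in the input, and Rif1, a replication-timing gene, had 28 against 0. Rest, a repressor of neuronal genes, had 22 against 2, the F-box gene Fbxo15 had 19 against 1, the Krüppel-like factor gene Klf2 had 16 against 0 and Phc1 had 15 against 0.

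For Spt16, Pou5f1 tied for the highest level in the network. Rif1 had the same 170 reads and 0 input reads, and the 26 genes ran from 0.709 to 4.64 RPM with a median of 1.30. Sox2, at 2.43 RPM, was exceeded by 4 of them, namely Rif1, Jarid2 and, named by the same region, Dppa3 and Gdf3. Nanog, at 1.39 RPM, was exceeded by 12. Like Sox2, 16 of the 26 (61.5%) were in the Spt16 list and not in the Oct4 list. Among all protein-coding genes, 1735 of the 2047 in the Spt16 list (84.8%, or 7.92% of all 21896) were not in the Oct4 list, so that is the usual case. The highest-scoring of the 16 network genes were Id3, Nodal and Utf1. Id3, an inhibitor of helix-loop-helix factors, had 70 Spt16 reads against 1 input read. Nodal, the growth factor that Lefty proteins oppose, had 53 against 0, and Utf1, a chromatin protein gene of ESCs, had 60 against 1. For Jmjd1c, Rif1 had 25 reads against 0, or 0.935 RPM, beside 0.898 at Pou5f1.

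**Figure D5:**
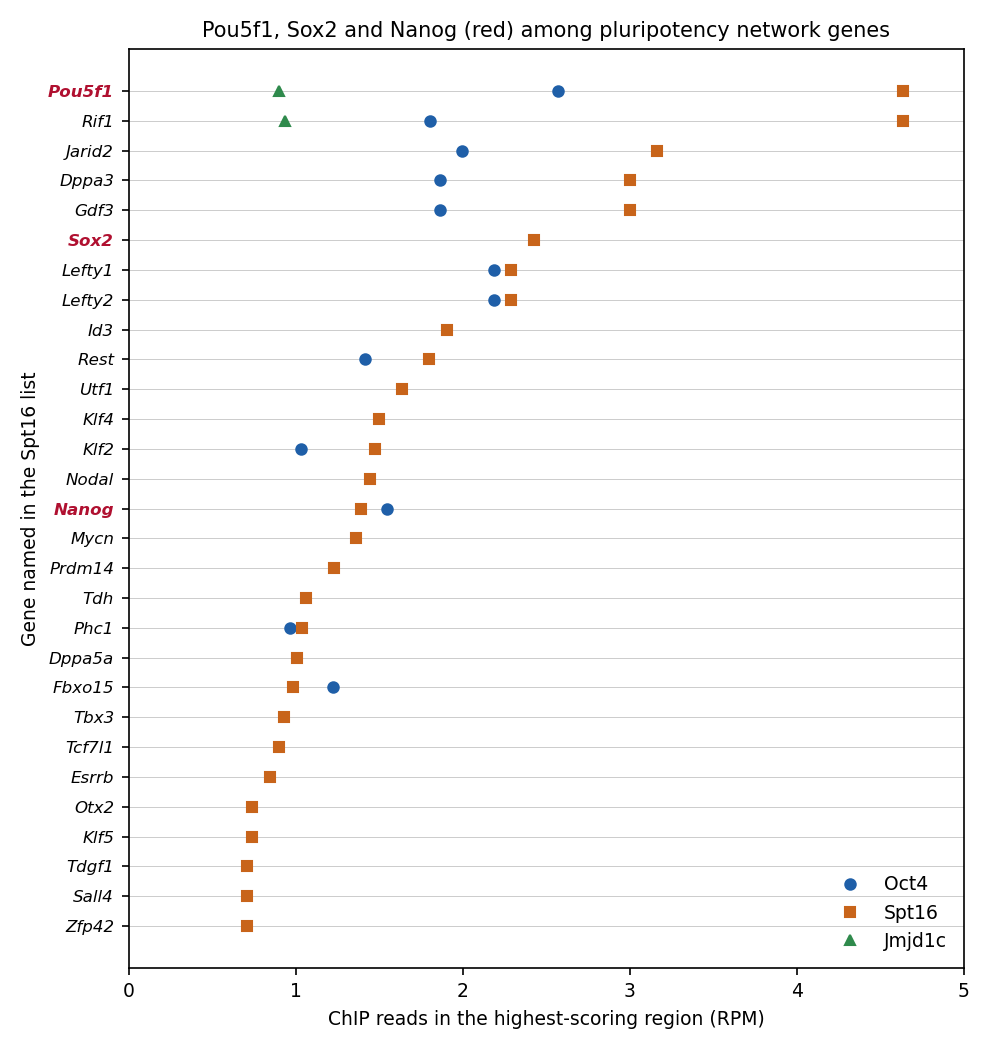
RPM in the highest-scoring region of each gene named in the Spt16 list, for Spt16 (squares), Oct4 (circles) and Jmjd1c (triangles), with Pou5f1, Sox2 and Nanog in red. Pou5f1 and Rif1 share the top Spt16 value of 4.64 RPM, and Sox2 has no Oct4 or Jmjd1c point.

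Which genes had the most similar levels? Likeness was the distance between genes in log2 RPM, over the libraries whose lists named the gene, among protein-coding genes in just those lists. Each gene was taken at its highest-scoring region in a list. Genes that shared such a region with Pou5f1 (7 genes), Sox2 (2) or Nanog (3) were left out. Over 3 libraries and 18 candidates, Rif1 was nearest to Pou5f1 at a distance of 0.52, with 28 Oct4, 170 Spt16 and 25 Jmjd1c reads. Tnfaip6, named by the same regions, tied with it, and Slc35f4 followed at 0.66. Over 2 libraries and 286 candidates, Clybl, Prkci and Skil were nearest to Nanog at 0.07, each with 23 Oct4 and 50 Spt16 reads. Prkci and Skil were named by the same regions. The Clybl regions lay 160540 bp from its start for Oct4 and 234847 bp for Spt16, so they were not the same DNA. Over 1 library and 1747 candidates, Rcn1, BC107364 and Kcnd3 were nearest to Sox2 with 90, 88 and 92 Spt16 reads. With so many candidates in 1 or 2 libraries, near-equal levels at Nanog and Sox2 are common.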

How the data were processed

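Per the submitters' processing notes, CASAVA 1.4 and Bowtie were used with the mm9 build. The Bowtie version and the region caller are not given in the sources used here. Per the file headers, each ChIP list was called by the authors against the same 10 h input, with thresholds of 13 on the Q score and 1 on the log2 ratio. The Q score is read here as 10 times the negative log10 of a Q value, from the size of the values. The deposited tables give whole-number read counts per strand in the best window, a log2 ratio and scores. The deposited log2 ratio equals the log2 of input-scaled ChIP reads over input reads, with 1 added to each.

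Strand counts were summed and divided by the library totals in the file headers. Ratios have 95% Clopper-Pearson intervals and RPM values exact Poisson intervals. With 0 input reads, folds used a floor of 3. The reads carry no stated molecular identifiers, so they are not counts of independent molecules and intervals cover counting error only. Gene symbols were matched through symbols and synonyms to RefSeq protein-coding genes (GRCm38.p6, names only). The match found 433 of 633 distinct identifiers in the Oct4 list, 2070 of 3203 in the Spt16 list and 41 of 65 in the Jmjd1c list. All 3 genes matched a RefSeq promoter. Distances are from the middle of a region.

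Regions were named where a row names Pou5f1, Sox2 or Nanog. Network genes were named if in the Oct4 list or among the 3 highest Spt16 scores outside it, and 3 genes of like level were named per gene. The genes, the network list and the rules were chosen with earlier results of these data known. Alternatives were other floors, strands, scalings, distance limits, overlap rules and ranks. Code was tested on simulated data. The tools were scipy 1.17.1 for intervals, pandas 2.3.3 for joins, numpy 2.4.6, matplotlib 3.10.9 for figures and Python 3.11.15.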

Additional observations from a re-analysis of the deposited data

How the results depend on the processing

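Of 58 recomputed values for 23 results, 43 stayed within their counting interval or within 1.5 times the count, none changed direction and 15 moved. With the authors' ratio, or set against 1 input read, neither of which is a bound, the Pou5f1 value was 38.6 or 37.6 for Oct4, 68.7 or 67.7 for Spt16 and 14.1 or 13.1 for Jmjd1c, since 0 input reads leave the fold to the floor chosen. Among Jmjd1c regions above the median score, 0 of the 3 genes were named. With a limit of 5 kb from the gene start, added after seeing the data, the Spt16 list named 15 network genes (35.7%), beside 1.30% of all genes at that limit. By RPM, Nanog was 54th in the Oct4 list and 245th in the Spt16 list, and Sox2 was 34th. By log2 ratio, Nanog was 244th and 1104th, Sox2 727th and Pou5f1 11th in the Jmjd1c list. The 4 list pairs that shared DNA at Pou5f1 or Nanog did so under each overlap rule tried. No paired analysis was possible because each group held 1 library. The 2 or fewer input reads per window limit every fold.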

Other observations

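Regions further from the 3 genes, chosen after their values were seen, are given as values. Within 100 kb of the Nanog start, the Oct4 and Spt16 lists each held 1 more region, and the pair overlapped. It lay 82.9 kb upstream by the Oct4 list (chromosome 6, 122574467 to 122574826, mm9), where the tables name the germline gene Dppa3 and the growth factor gene Gdf3 and not Nanog. It held 29 Oct4 reads against 2 input reads, a 13.6-fold excess (95% exact binomial interval 3.44 to 118), and 110 Spt16 reads against 3, a 14.6-fold excess (4.86 to 71.8). Its 110 Spt16 reads exceeded the 51 at the Nanog start.

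The Spt16 list held a further region 108 kb downstream of the Sox2 start (chromosome 3, 34656839 to 34657216, mm9), beside which no gene was listed. It held 44 Spt16 reads against 0 in the input, at least 5.84-fold over the floor of 3 input reads at the counted ChIP reads. Both lists kept regions for exceeding the input, so these excesses are descriptions. An enhancer cluster needed for Sox2 expression in mouse ESCs is known far downstream of the gene. Whether this region lies in it was not tested.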
